A study of Mus musculus with 96 samples.

Results

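The cells described here are erythroid progenitors that stood at the top or at the bottom of their sort gate in transcripts of mitosis. For each cell, a mitotic score was taken as the mean of log2(CPM + 10) over 6 genes, Ccnb1, Cdc20, Plk1, Aurka, Cenpf and Ube2c, where CPM is a gene's share of the reads in genes scaled to a common total of 1000000. Within each of 4 sort gates the highest 1 in 3 cells, rounded down, formed the mitotic-high side and the lowest 1 in 3 the mitotic-low side, and the sides were then pooled over gates. This gave 27 mitotic-high and 27 mitotic-low cells, with 28 middle cells between them, of 82 cells kept and 96 wells in all. Each side held 5 cells of the BFUE gate, 7 and 8 of the lower and upper intermediate gates, and 7 of the CFUE gate.

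The wells of a single plate held 1 sorted cell each, from livers of C57/Bl6J mouse embryos at day 14.5, with 24 wells per gate, and cDNA of whole transcripts was made by Smart-seq2. Cells had first been depleted of other blood lineages with antibodies and were then sorted on Kit, CD71 and CD24. BFUE and CFUE name the earlier and the later red cell progenitor by the colonies they form in culture, and the intermediate gates are those labelled 25 to 35% and 50 to 60% of CD71/CD24 expression. No genotype or agent separates the gates. No animal or pool is named in the labels, so the cells of a gate are 1 unreplicated sample, and plate columns coincide with gates. Left out were 5 wells of 10596 to 16644 reads, 8 BFUE cells with 1036 to 2202 CPM of the stem cell marker Cd34, and 1 CFUE cell with reads in 6361 genes.

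A cell entering mitosis activates Cdk1 with cyclin B, builds a spindle, attaches chromosomes at kinetochores, and after anaphase divides the cytoplasm by cytokinesis. Many of the genes for these steps are transcribed late in the cycle, from promoters that often carry a short element called the CHR, which complexes with the MuvB core bind. Genes that license and replicate DNA are transcribed earlier, around the start of S phase, largely under E2F factors. Fetal liver progenitors divide quickly as they mature, so cells of a gate are caught at different points of the cycle.

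The sides were chosen from the same cells whose transcripts are compared. All differences below are therefore descriptions with no test, and any gene that varies with the score in these cells is bound to differ between the sides. Values of a side are CPM of its summed reads, ratios are mitotic-high over mitotic-low, and their intervals are exact 95% intervals (Clopper-Pearson) that cover counting error only, since the reads carry no molecular identifiers. Genes with at least 10 CPM in either side were called measured, which held for 7888 genes outside the 6. The sides held 40421076 reads in mitotic-high cells and 42258351 in mitotic-low cells. Per cell, mitotic-high cells had a median of 9428 genes with a read and mitotic-low cells 9312, and with every cell thinned to 500000 reads the medians were 8396 and 8294. Across the 82 cells the score had a Pearson correlation of -0.01 with the number of reads. Within gates it was 0.17, -0.14, -0.02 and -0.33 from BFUE to CFUE. With the number of genes with a read it was 0.10, 0.41, 0.32 and 0.03 in the same order.

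The score fell in steps of different size at the borders of the sides. The lowest mitotic-high cell and the highest middle cell scored 7.93 and 7.87 in BFUE, 7.39 and 7.38 in the lower intermediate gate, 7.38 and 7.36 in the upper one, and 8.36 and 8.33 in CFUE. The lowest middle cell and the highest mitotic-low cell scored 7.32 and 6.39 in BFUE, 7.18 and 6.99 in the lower intermediate gate, 6.93 and 6.88 in the upper one, and 7.62 and 7.58 in CFUE. The widest of these gaps was at the low border of BFUE.

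**Figure D1:**
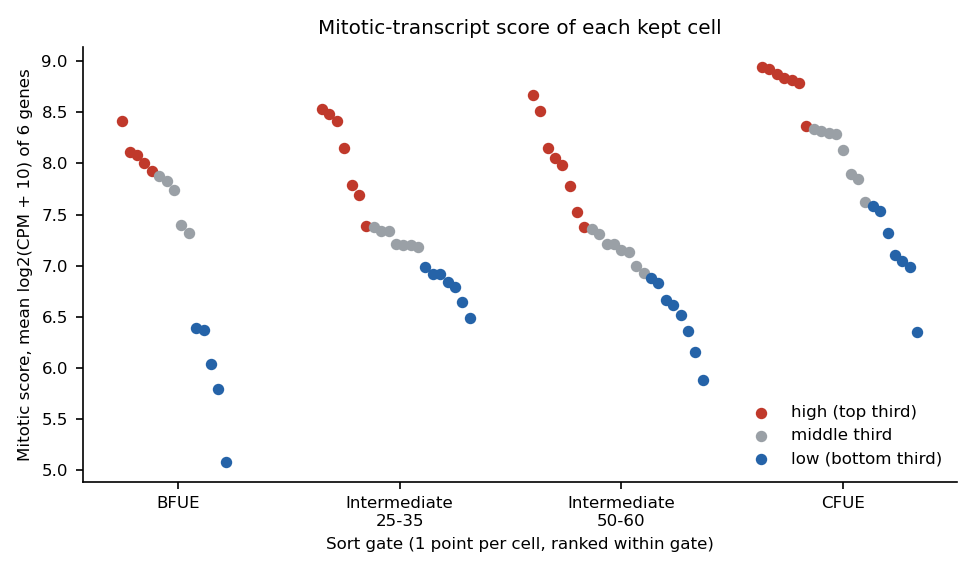
Mitotic score of each of the 82 kept cells (vertical axis, mean log2(CPM + 10) of 6 genes), ranked from high to low within the 4 sort gates (horizontal axis). Red points are the 27 mitotic-high cells, grey the 28 middle cells and blue the 27 mitotic-low cells, and a wide gap above the low cells shows in BFUE, where the lowest middle cell scored 7.32 and the highest low cell 6.39.

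The 6 genes that chose the sides are given first, as a description of the choice. Ccnb1, cyclin B1, was at 637 CPM in mitotic-high cells against 242 CPM in mitotic-low cells. Plk1, a kinase of mitotic entry and spindle assembly, was at 442 against 136 CPM, and Aurka, a spindle pole kinase, at 314 against 81.2 CPM. The ubiquitin-conjugating enzyme Ube2c, which works with the anaphase-promoting complex, was at 438 against 102 CPM in the same order. Cenpf, a kinetochore protein, was at 59.2 against 10.8 CPM, and Cdc20, the activator of the anaphase-promoting complex, at 527 against 331 CPM. With sides chosen by the other 5 genes, the gene left out was still higher in mitotic-high cells. It was 3.57-fold for Ube2c (interval 3.46 to 3.69), 3.51-fold for Aurka, 3.15-fold for Cenpf, 2.97-fold for Plk1, 2.45-fold for Ccnb1 and 1.46-fold for Cdc20 (interval 1.43 to 1.49). The ratio of Cdc20 was the smallest of the 6, and its log2 ratio within gates, with the sides of the full score, was 1.64 in BFUE, 0.58 and 0.10 in the lower and upper intermediate gates, and 0.94 in CFUE.

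Over all 7888 measured genes the median log2 ratio was 0.00. At 2-fold, 195 genes (2.47%) were higher in mitotic-high cells and 163 (2.07%) lower. Without the upper intermediate gate the counts were 316 higher and 279 lower, and without CFUE 253 and 249. At 1.5-fold, 622 (7.89%) were higher and 540 (6.85%) lower. Counts of list members called higher or lower below are at 1.5-fold, to be read beside these shares. The same direction in all 4 gates was seen for 690 genes (8.75%) on the higher side and 761 (9.65%) on the lower side. For 0 genes did the 27 mitotic-high cells lie wholly above or wholly below the 27 mitotic-low cells. The 2-fold genes that were also well expressed, spread over cells and equal in direction across gates and across both sets of plate rows numbered 33 higher and 12 lower. Of the 33, 15 were on the lists of mitosis genes, and of the 12, 7 were on the list of S phase genes and 0 on those of mitosis.

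**Figure D2:**
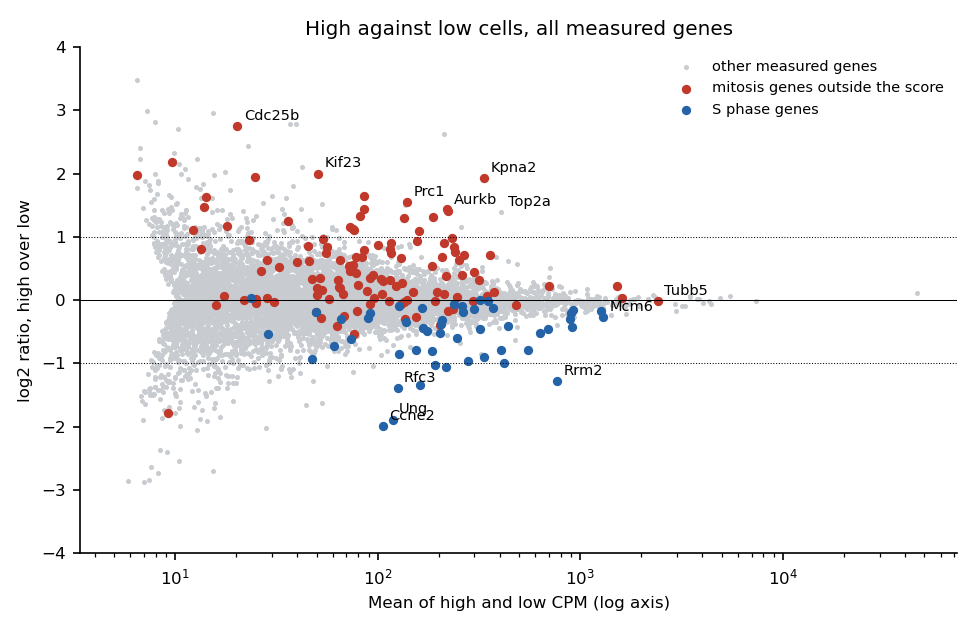
Log2 ratio of mitotic-high over mitotic-low cells (vertical axis) against the mean CPM of the sides (horizontal log axis) for 7888 measured genes, with dotted lines at 2-fold and 2 genes beyond the axis range. Of the 119 mitosis genes outside the score (red) 96 lie above 0 and of the 50 S phase genes (blue) 48 lie below it, with Kpna2 at 1.93 and Ccne2 at -1.99.

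Genes of mitosis outside the 6 that differed by at least 1.5-fold were higher in mitotic-high cells with 1 exception, but more members lay within 1.5-fold than past it, and the shares differed among their roles. The 5 lists of mitotic kinases and checkpoint, Cdk1 activation, kinetochore, spindle and cytokinesis held 121 genes found in the table, of which 119 were measured. Of these 119, 50 were at least 1.5-fold higher, 68 within 1.5-fold and 1 lower, 96 had a ratio above 0, and 53 were higher in all 4 gates. Meeting both criteria were 43, beside 3.73% of all measured genes. Their median log2 ratio was 0.39, beside 0.00 over all measured genes, with 0.72 in BFUE, 0.25 in both intermediate gates and 0.54 in CFUE. Their summed level was 22031 CPM in mitotic-high cells, 18673 in middle cells and 17370 in mitotic-low cells. In both intermediate gates, however, the middle cells were not above the mitotic-low cells, at 16594 against 17005 CPM in the lower gate and 17280 against 17465 CPM in the upper one, and the pooled middle held 8 CFUE cells where each side held 7. Within their own gates, 21 of 27 mitotic-high cells had a mean log2(CPM + 10) over these genes above every mitotic-low cell, and 1 lay below every one.

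Of 35 spindle genes 21 were higher and 0 lower, and the median log2 ratio was 0.85. Kpna2, an importin that carries spindle factors (chromosome 11, 106988629 to 106999541, GRCm38), ranged over cells from 59.9 to 1059 CPM with a median of 569 in mitotic-high cells, against 2.03 to 258 with a median of 158 in mitotic-low cells. The ranges overlapped, and 25 of 27 mitotic-high cells lay above the mitotic-low median. In summed reads Kpna2 was 3.8-fold higher (interval 3.70 to 3.92), with log2 ratios of 1.58, 1.53, 1.85 and 2.51 from BFUE to CFUE. Kif2c, a kinesin that takes microtubules apart (chromosome 4, 117159639 to 117182639), had a median of 107 CPM in mitotic-high cells (13.8 to 256) against 42.9 in mitotic-low cells (0 to 142). It was 2.72-fold higher in sum (interval 2.58 to 2.87). Nusap1, which bundles spindle microtubules, was at 129 against 41.3 CPM, but it overlaps Oip5 on the other strand, whose log2 ratio was 0.25, and whether counting used strand is not stated in these sources.

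The motors Kif11, which pushes spindle poles apart, and the microtubule-associated Hmmr were 2.47-fold and 2.46-fold higher. The tubulins of the same list did not differ to that extent. Tubb5 was at 2410 CPM in mitotic-high cells against 2430 CPM in mitotic-low cells, Tuba1b at 1626 against 1593 CPM, and Tubb4b at 1645 against 1401 CPM. Tuba1c was at 206 against 108 CPM, 1.90-fold higher, and since Tuba1b and Tuba1c are near-identical copies the split of reads between them is uncertain. Stmn1, which destabilises microtubules, had a log2 ratio of -0.08.

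Cytokinesis genes were higher in 8 of 12 measured members, with a median log2 ratio of 0.72 and 0 lower. Kif23, the motor of the central spindle (chromosome 9, 61915905 to 61946774), had a median of 59.3 CPM over mitotic-high cells (0 to 241) against 8.65 over mitotic-low cells (0 to 92). Both sides held cells at 0, and 23 mitotic-high cells lay above the mitotic-low median. Kif23 was 4.0-fold higher in sum (interval 3.71 to 4.31), with log2 ratios of 4.45 in BFUE and 1.61 to 1.91 in the other gates. Prc1, which crosslinks microtubules of the central spindle (chromosome 7, 80294450 to 80316259), had a median of 201 CPM in mitotic-high cells (0.921 to 406) against 48 in mitotic-low cells (0 to 301), and was 2.93-fold higher in sum (interval 2.81 to 3.05). Its log2 ratio lay between 1.16 and 1.74 in the 4 gates. Racgap1, the partner of Kif23, was at 220 against 151 CPM, 1.46-fold and under the 1.5-fold line. Sept7, a septin, went the other way with a log2 ratio of -0.40 and was below 0 in all 4 gates.

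Among mitotic kinases and checkpoint genes, 8 of 22 were higher and 0 lower, and the median log2 ratio was 0.34. Aurkb, the kinase of the chromosomal passenger complex (chromosome 11, 69045647 to 69051664), had a median of 331 CPM in mitotic-high cells (48.9 to 553) against 110 in mitotic-low cells (14.3 to 324). It was 2.67-fold higher in sum (interval 2.58 to 2.75), with 24 mitotic-high cells above the mitotic-low median. The members of its complex were not equal, with Incenp 2.14-fold higher, Cdca8 at a log2 ratio of 0.45 and Birc5 at 0.32. Espl1, the separase that cuts cohesin at anaphase (chromosome 15, 102296266 to 102324357), was at 117 against 46.8 CPM, 2.50-fold higher (interval 2.37 to 2.64) and between 1.17 and 1.42 on the log2 scale in the 4 gates. Its inhibitor Pttg1, securin, was at 30.5 against 31.2 CPM. Of the checkpoint proteins, Bub3 and Bub1b were both at a log2 ratio of 0.72, while Mad2l1 was at -0.13.

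Kinetochore genes were at least 1.5-fold higher in 9 of 31 members and lower in 0, beside 7.89% and 6.85% of all measured genes. A log2 ratio below 0 was seen for 9 members. The median was 0.19, with 0.52 in BFUE, 0.07 and -0.15 in the lower and upper intermediate gates, and 0.33 in CFUE. Cenpe, a kinesin that moves chromosomes to the spindle equator, was 2.37-fold higher (interval 2.19 to 2.57). Zwint, Cenpa and Spc24, members named for their level, had log2 ratios of 0.13, 0.10 and -0.17. Cenpa itself was at 219 CPM in mitotic-high cells against 205 CPM in mitotic-low cells.

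The Cdk1 activation list mixes genes that switch on Cdk1 with some that oppose it and with transcription factors. Of its 19 genes 4 were higher and 1 was lower, and the median log2 ratio was 0.03. Ccnf, cyclin F (chromosome 17, 24222198 to 24251484), had a median of 320 CPM in mitotic-high cells (114 to 681) against 110 in mitotic-low cells (1.05 to 292). All 27 mitotic-high cells lay above the mitotic-low median, and the sum was 2.71-fold higher (interval 2.62 to 2.80). Cdk1 was at 309 against 157 CPM, 1.97-fold higher, Bora, an activator of Plk1, at 129 against 70.5 CPM, and the phosphatase Cdc25b at 35.3 against 5.23 CPM with a log2 ratio of only 0.08 in the lower intermediate gate.

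The ratios of the cyclins were unlike. Ccnb2, cyclin B2 (chromosome 9, 70407692 to 70421547), had a median of 284 CPM in mitotic-high cells (65.4 to 544) against 274 in mitotic-low cells (4.10 to 936). In sum it was at 293 against 297 CPM, a ratio of 0.99 (interval 0.96 to 1.01), and its log2 ratio was -0.09, -0.06 and -0.50 in the first 3 gates and 0.58 in CFUE. Cyclin A2, Ccna2, was at 750 against 644 CPM, with a log2 ratio of 0.22. The 1 lower member was Ppp2r2d, a regulatory subunit of a phosphatase that opposes Cdk1, at 4.18 against 14.3 CPM, although its log2 ratio in the lower intermediate gate was 2.39. Foxm1, a transcription factor of late cycle genes, had a log2 ratio of -0.08.

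Genes of chromosome structure had a smaller share of members past 1.5-fold than each of the 5 mitosis lists. Of 24 such genes 3 were higher and 0 lower, beside 7.89% and 6.85% of all measured genes. The median log2 ratio was 0.19, as for the kinetochore genes. Top2a, the topoisomerase that untangles sister DNA (chromosome 11, 98992943 to 99024189), had a median of 531 CPM in mitotic-high cells (9.08 to 1164) against 201 in mitotic-low cells (1.94 to 702). It was 2.62-fold higher in sum (interval 2.56 to 2.68) and between 1.15 and 1.47 on the log2 scale in the 4 gates. The condensin subunit Ncaph was 1.79-fold and the proliferation marker Mki67 1.62-fold higher. Mki67 had log2 ratios of only 0.24 and 0.09 in BFUE and the lower intermediate gate. Ran and H2afz, members named for their level, were at -0.11 and -0.16.

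The anaphase-promoting complex was represented by 17 measured genes, of which 1 was higher and 0 lower. That gene was Fzr1, the activator that takes over from Cdc20 late in mitosis (chromosome 10, 81366222 to 81378516). It had a median of 155 CPM in mitotic-high cells (0 to 531) against 44.7 in mitotic-low cells (0.551 to 282), and was 2.83-fold higher in sum (interval 2.71 to 2.95). Fzr1 overlaps Mfsd12 on the other strand, whose log2 ratio was 0.18. Fbxo5, an inhibitor of the complex, was at 127 against 183 CPM, a log2 ratio of -0.53. Of 17 centrosome genes 1 was higher and 1 lower, and of 14 nuclear envelope genes 0 were higher and 0 lower. Over all measured genes the shares were 7.89% higher and 6.85% lower.

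**Figure D3:**
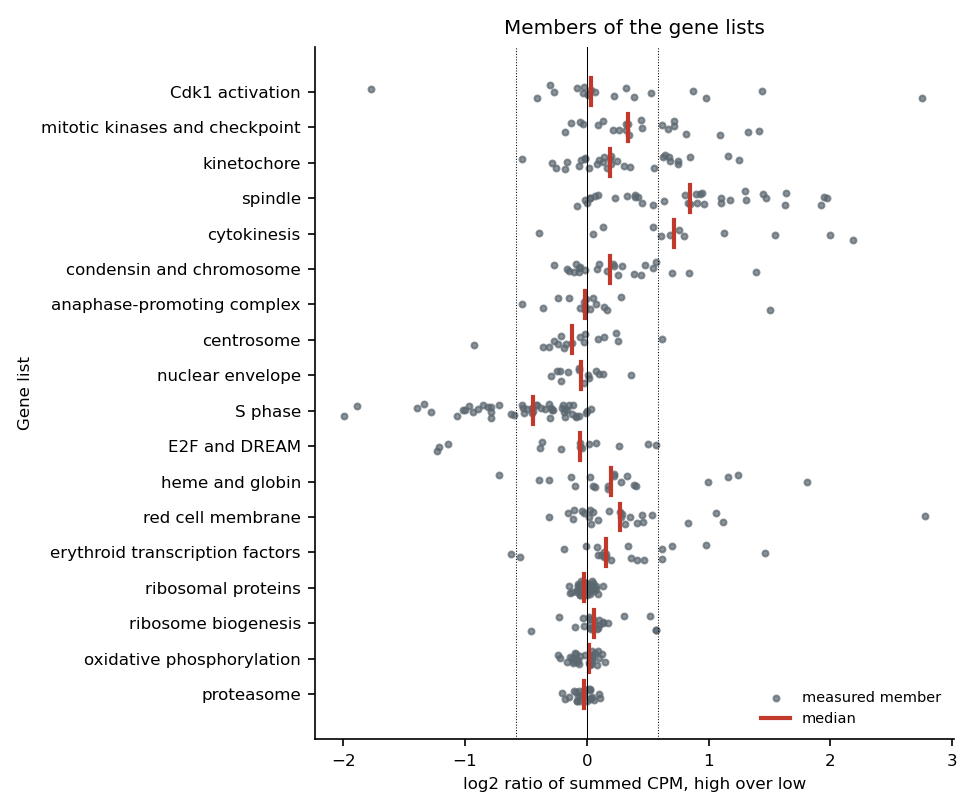
Log2 ratio of mitotic-high over mitotic-low cells (horizontal axis) for each measured member (grey point) of 18 gene lists (vertical axis), with the list median in red and dotted lines at 1.5-fold. Spindle and cytokinesis medians lie at 0.85 and 0.72, the S phase median at -0.45, and ribosomal proteins, oxidative phosphorylation and proteasome genes cluster at 0.

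Other genes with large ratios fell outside these lists. Arhgef39, a guanine nucleotide exchange factor (chromosome 4, 43496142 to 43499695), had a median of 60.4 CPM in mitotic-high cells (0.836 to 204) against 0.72 in mitotic-low cells (0 to 56.4). It was 6.89-fold higher in sum (interval 6.22 to 7.65), the largest ratio by the naming rule. Pif1, a DNA helicase, was 4.28-fold higher (interval 3.94 to 4.66), Exd2, an exonuclease, 3.05-fold, and Arhgap11a, a GTPase-activating protein, 2.88-fold. Arhgap11a rested on 3 gates, with log2 ratios of 4.11, 2.89 and 2.33 in BFUE, the lower intermediate gate and CFUE and 0.02 in the upper intermediate gate.

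Promoter sequences of named genes are shown because the late cycle genes that differed carried the CHR letters more often than other genes did. Sequences are from RefSeq (GRCm38.p6), read 5′ to 3′ on the gene's strand from 90 bases before to 30 after the annotated start. The promoters shown were picked for holding the marked letters and do not stand for all named genes. Capitals mark TTTGAA, the CHR, on either strand in the first 5. In Dtl, an S phase gene lower in mitotic-high cells, they mark the E2F letters TTTGGCGC.
Kif23, chr9:61946770-61946889, minus strand: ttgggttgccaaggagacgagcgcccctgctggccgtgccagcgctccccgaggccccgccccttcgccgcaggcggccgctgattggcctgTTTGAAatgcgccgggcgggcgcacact
Prc1, chr7:80294361-80294480, plus strand: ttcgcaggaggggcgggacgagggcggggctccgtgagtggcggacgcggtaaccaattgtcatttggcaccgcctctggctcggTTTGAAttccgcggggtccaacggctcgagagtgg
Espl1, chr15:102296203-102296322, plus strand: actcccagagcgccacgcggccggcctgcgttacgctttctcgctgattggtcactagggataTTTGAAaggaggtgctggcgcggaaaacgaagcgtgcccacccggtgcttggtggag
Ccnf, chr17:24251380-24251499, minus strand: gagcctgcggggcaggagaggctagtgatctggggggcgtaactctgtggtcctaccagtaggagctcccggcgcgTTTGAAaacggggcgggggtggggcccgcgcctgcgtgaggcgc
Kpna2, chr11:106999496-106999615, minus strand: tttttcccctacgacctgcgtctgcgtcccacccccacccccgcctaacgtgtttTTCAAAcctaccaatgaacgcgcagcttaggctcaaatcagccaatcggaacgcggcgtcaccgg
Dtl, chr1:191575515-191575634, minus strand: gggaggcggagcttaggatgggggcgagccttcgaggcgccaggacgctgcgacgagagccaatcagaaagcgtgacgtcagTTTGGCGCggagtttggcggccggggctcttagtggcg

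Shares of promoters with these letters were counted on both strands from 250 bases before to 50 after the start, over 32851 promoters of 27025 genes. TTTGAA was in 69.6% of the promoters of mitosis genes at least 1.5-fold higher (32 of 46, for 41 genes with an entry of 50). It was in 32.3% of the promoters of mitosis genes within 1.5-fold, in 0 of 17 promoters of the S phase genes at least 1.5-fold lower, in 12.1% of those of measured genes and in 17.9% of all promoters. Of the 6 score genes, 5 carried it. The variant TTCGAA showed no such order, at 6.52% of the higher mitosis promoters, 11.3% of those of mitosis genes within 1.5-fold, 5.88% of those of lower S phase genes and 1.56% of all. Counting either spelling, the share was 73.9% in higher mitosis promoters and 41.9% in those within 1.5-fold. CCAAT, the element of the factor NF-Y, was in 78.3% of the higher mitosis promoters, 58.1% of those of mitosis genes within 1.5-fold, 58.8% of those of lower S phase genes and 37.4% of all.

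The E2F letters showed no such split between the sets of mitosis genes. GGCGGGA was in 26.1% of the promoters of higher mitosis genes, 25.8% of those within 1.5-fold, 41.2% of those of lower S phase genes (7 of 17), 30.8% of those of S phase genes within 1.5-fold and 22.6% of those of measured genes. TTTGGCGC was in 2 of 17 lower S phase promoters (11.8%) and in more of those of S phase genes within 1.5-fold (5 of 26, 19.2%), beside 1.17% of those of measured genes and 0.514% of all. Among the named genes, E2F letters of either spelling were in 5 of 12 promoters of higher genes and 2 of 11 of lower ones. TTTGAA was in 9 of 12 and 1 of 11 in the same order. A match is a description of letters in a window, and binding was not measured.

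**Figure D4:**
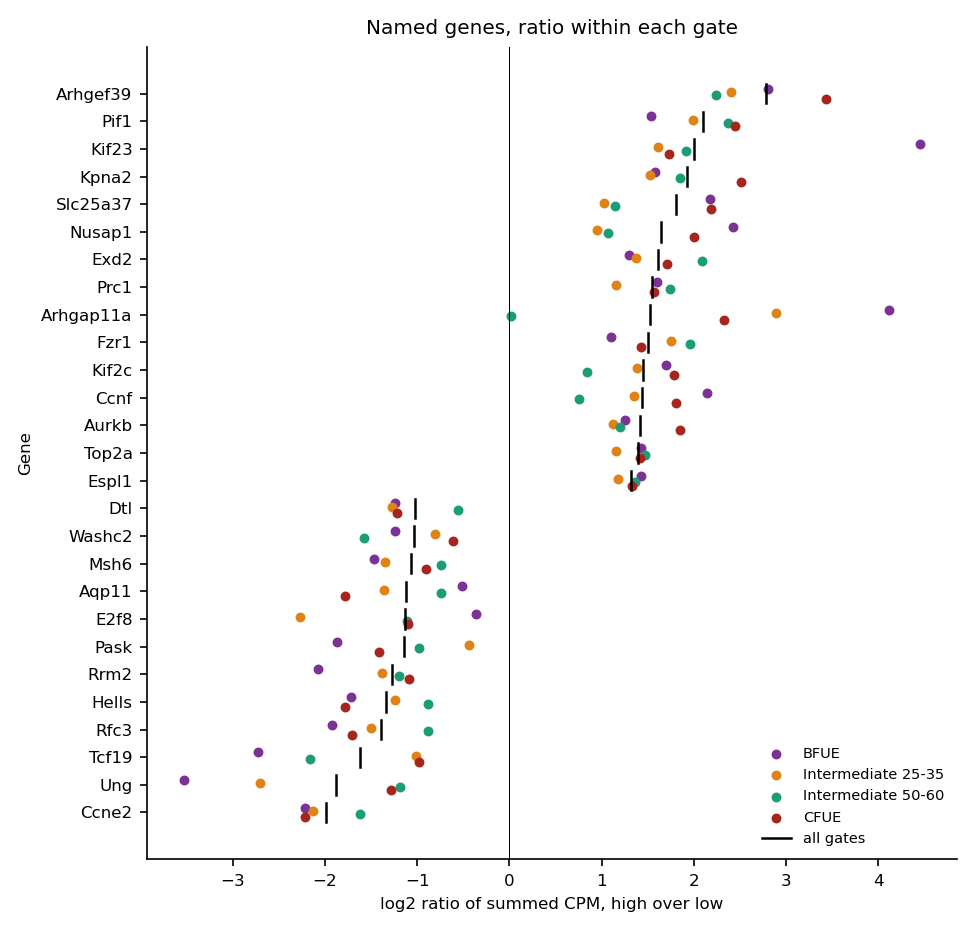
Log2 ratio of mitotic-high over mitotic-low cells (horizontal axis) for the 15 highest and 12 lowest genes that met the naming rule (vertical axis), in each of the 4 gates (coloured points) and over all gates (black bar). The rule required that the points of a gene lie on 1 side of 0 in every gate, and Arhgap11a, at 0.02 in the upper intermediate gate, is the closest to it.

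Genes of DNA replication were lower in mitotic-high cells. Of 50 S phase genes, all measured, 19 were at least 1.5-fold lower and 0 higher, 48 were below 0 and 33 were lower in all 4 gates. Those past 1.5-fold and lower in all 4 gates were 18, beside 2.99% of all measured genes. Their median log2 ratio was -0.45, with -0.76 in BFUE, -0.62 in the lower intermediate gate, -0.30 in the upper one and -0.35 in CFUE. Their summed level was 13998 CPM in mitotic-high cells (9307 to 19575 per cell), 15183 in middle cells and 19291 in mitotic-low cells (15705 to 23182 per cell). The ranges overlapped over all gates, but within their own gates 24 of 27 mitotic-high cells had a lower mean S phase level than every mitotic-low cell.

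The most negative ratio on the list was that of Ccne2. This gene encodes cyclin E2, which acts with Cdk2 at the start of S phase (chromosome 4, 11191351 to 11204779), and had a median of 26.7 CPM in mitotic-high cells (0.627 to 207) against 165 in mitotic-low cells (12.6 to 371). It was 3.97-fold lower in sum (interval 3.77 to 4.19), with log2 ratios from -2.22 to -1.62 in the 4 gates, and only 2 mitotic-high cells lay above the mitotic-low median. Ccne2 overlaps Ints8 on the other strand, whose log2 ratio was 0.09. Cyclin E1, Ccne1, was at 281 against 562 CPM.

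Other S phase genes named by rule or with their values known follow. Ung, which removes uracil from DNA (chromosome 5, 114130386 to 114139323), had a median of 44.2 CPM in mitotic-high cells (0 to 177) against 174 in mitotic-low cells (13.1 to 472). It was 3.70-fold lower in sum (interval 3.52 to 3.88), with log2 ratios of -3.53 in BFUE, -2.70 and -1.19 in the lower and upper intermediate gates, and -1.28 in CFUE. Rrm2, a subunit of ribonucleotide reductase (chromosome 12, 24708241 to 24714146), had a median of 511 CPM in mitotic-high cells (78 to 1199) against 1083 in mitotic-low cells (231 to 1725). It was 2.42-fold lower in sum (interval 2.38 to 2.46). Its partner Rrm1 was at 1184 against 1337 CPM, a log2 ratio of -0.18. The mismatch repair gene Msh6 was 2.09-fold lower (interval 2.02 to 2.16), with 1 mitotic-high cell above the mitotic-low median.

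Within protein complexes the members differed. Of the clamp loader, Rfc3 (chromosome 5, 151642756 to 151651242) was at 69.0 CPM in mitotic-high cells against 181 CPM in mitotic-low cells, 2.63-fold lower (interval 2.52 to 2.75). Rfc2, Rfc4 and Rfc5 of the same complex had log2 ratios of -0.01, -0.06 and 0.00. Of the replicative helicase, Mcm4 and Mcm3 were at -0.52 and -0.42, Mcm2, Mcm6 and Mcm7 at -0.29, -0.27 and -0.21, and Mcm5 at -0.16. The licensing factors Cdt1 and Cdc6 were at -0.96 and -0.89, Dtl, which targets Cdt1 for destruction, at -1.02 and the chromatin remodeller Hells at -1.33. Pcna, the sliding clamp, was at 584 against 799 CPM, lower in all 4 gates but under the 1.5-fold line.

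Some of the E2F factors themselves were lower too. Of 14 measured E2F and DREAM genes 3 were lower and 0 higher, with a median log2 ratio of -0.05. The repressor E2f8 (chromosome 7, 48866429 to 48881596) had a median of 37 CPM in mitotic-high cells (0.601 to 145) against 112 in mitotic-low cells (0 to 255), and was 2.20-fold lower (interval 2.08 to 2.32). E2f7 was 2.32-fold and E2f2 2.34-fold lower, both at low levels, at 12.1 against 28 CPM and 9.67 against 22.6 CPM. The named genes Tcf19, Pask, Aqp11 and Washc2 lie outside the lists, and Tcf19, a gene induced at the start of S phase, was 3.08-fold lower (interval 2.87 to 3.30). Pask overlaps Ppp1r7 on the other strand, whose log2 ratio was -0.37.

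Cell by cell, the score and the S phase level were negatively correlated within each gate. The Pearson correlation of the score with the mean S phase level was -0.80 over 15 BFUE cells, -0.91 over 21 cells of the lower intermediate gate, -0.78 over 24 cells of the upper one and -0.51 over 22 CFUE cells. In BFUE the order did not hold among the cells above the low ones, where the summed S phase level was 11448 CPM in mitotic-high cells, 10504 in middle cells and 18585 in mitotic-low cells, and the cell with the lowest mean level (6.66) was a middle cell. With the mean of the mitosis genes outside the score the correlation was 0.73, 0.86, 0.75 and 0.81 in the same order. Both means and the score come from the same libraries and share each cell's total, so these values are descriptions. In sums pooled over gates, middle cells were between the sides for all 15 higher and all 12 lower named genes. The same held for 43 of the 50 mitosis genes and 17 of the 19 S phase genes. Of all genes at least 1.5-fold higher or lower, 71.1% and 66.5% had middle cells between the sides. Such counts were not made within gates, and in both intermediate gates the summed mitosis level of middle cells was below that of mitotic-low cells.

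**Figure D5:**
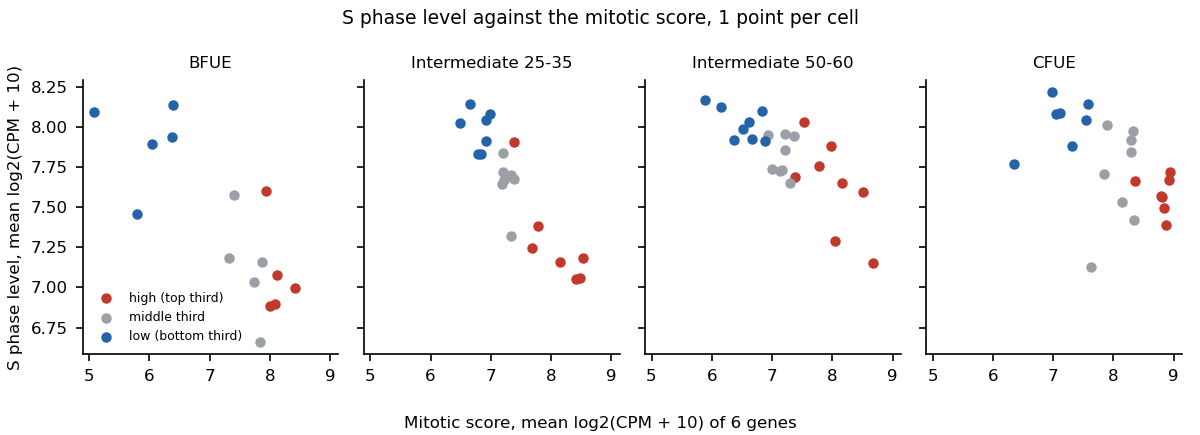
Mean log2(CPM + 10) of 50 S phase genes (vertical axis) against the mitotic score (horizontal axis) for each of the 82 kept cells, in 1 panel per gate, with mitotic-high cells red, middle cells grey and mitotic-low cells blue. The correlation is negative in each panel, with r from -0.91 in the lower intermediate gate to -0.51 in CFUE.

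Genes of red cell maturation had a median ratio above 0 in CFUE and below 0 in the other gates. Of 45 measured heme, globin and membrane genes, 8 were higher and 1 was lower, beside 7.89% and 6.85% of all measured genes. The median log2 ratio was 0.22. By gate the median was -0.10 in BFUE, -0.39 and -0.11 in the lower and upper intermediate gates, and 0.64 in CFUE, and 4 of the 45 were higher in all 4 gates. Over all gates the median was -0.18 without CFUE and -0.13 in plate rows A to D alone. Slc25a37, mitoferrin, which brings iron into mitochondria for heme synthesis (chromosome 14, 69241848 to 69285112), was the 1 member that met the naming rule. It had a median of 51.6 CPM in mitotic-high cells (0 to 150) against 2.33 in mitotic-low cells (0 to 68.9), and was 3.50-fold higher (interval 3.21 to 3.8), with log2 ratios of 2.17, 1.03, 1.15 and 2.18 from BFUE to CFUE.

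Other members of these lists turned with the gate or hung on single cells. Hba-a1, an alpha globin, was at 354 against 158 CPM with log2 ratios of -1.57, -1.98, -0.11 and 1.60 from BFUE to CFUE and -0.17 in plate rows A to D, and its near-identical copy Hba-a2 takes an uncertain share of the reads. Slc4a1, the band 3 exchanger, was at 64.1 against 9.35 CPM, but 1 mitotic-high cell held 37.1% of that side's reads and 1 mitotic-low cell 77%. Alad, a heme enzyme named for its level, had a log2 ratio of 0.06. Of 13 measured late erythroblast markers 4 were higher and 1 lower. Their summed level was 620 to 6970 CPM per cell in mitotic-high cells and 442 to 6838 in mitotic-low cells, with a median ratio of 0.62 (log2) in CFUE and -1.22 in the lower intermediate gate. Its part in the results was not tested.

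Erythroid transcription factors were mostly close between the sides. Of 21 such genes 5 were higher and 1 was lower, and the median log2 ratio was 0.16. Klf1 was at 991 against 900 CPM, Gata1 at 471 against 428 CPM and Ikzf1 at 408 against 356 CPM. Lmo2, a bridging partner of Gata1, was at 530 against 344 CPM with log2 ratios of 0.73, 0.49, 0.61 and 0.60 from BFUE to CFUE. Gfi1b, a repressor of the same lineage, went the other way, at 376 against 580 CPM and below 0 in all 4 gates. Of 14 early progenitor genes 4 were higher and 0 lower, beside 7.89% and 6.85% of all measured genes, and 0 were higher in all 4 gates. Their median log2 ratio was 0.45, 0.28, 0.08 and -0.68 from BFUE to CFUE. Among the 4 was Itga2b, which encodes CD41, a target of the depletion antibodies. In Itga2b 1 cell held 56.8% of the mitotic-high reads, and its log2 ratio was -1.46 without BFUE, against 1.43 with it. Kit was at 541 against 447 CPM.

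Markers of other lineages were scarce in both sides for some lineages and reached higher levels in single cells for others. None of 12 neutrophil and monocyte, 12 lymphoid and 10 endothelial and stromal markers reached 10 CPM in either side. Of 12 megakaryocyte markers 3 of 4 measured were higher, beside 7.89% of all measured genes, but 0 were higher in all 4 gates. The list's median log2 ratio was 0.60, 1.17, -1.55 and 1.75 from BFUE to CFUE. The summed level of the 12 was 9.92 to 2419 CPM per cell in mitotic-high cells and 1.94 to 1423 in mitotic-low cells. Pf4 and Ppbp were at 0 in both sides. Of 9 mast cell markers both measured ones, Gata2 and Il1rl1, were higher in sum but in only 2 of 4 gates each. Il1rl1 had log2 ratios of -3.34 in BFUE and -0.38 in the lower intermediate gate. Gata2 had -2.65 in the upper intermediate gate, -2.26 in CFUE and -0.34 in plate rows A to D, and 1 cell held 67% of its mitotic-high reads. Mcpt8, Fcer1a and Cma1 were at 0 in both. Of 11 macrophage markers 1 was measured, Slc40a1, at 117 against 114 CPM, with Adgre1 at 0 in both. Of 12 hepatoblast markers 3 were measured, 2 of them lower and 1 with a log2 ratio of 0.35. The lower ones were Afp, at 49 CPM in mitotic-high cells against 83 CPM in mitotic-low cells, and Alb, at 33.6 against 59.4 CPM. The list's median log2 ratio was -1.93 in BFUE, -0.11 and 0.63 in the lower and upper intermediate gates, and -0.75 in CFUE. The hepatoblast sum was 3.31 to 453 CPM per cell in mitotic-high cells and 25.9 to 1672 in mitotic-low cells. The part of these markers in the results was not tested.

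Genes of growth and metabolism were all within 1.5-fold, though some lists leaned to 1 side of 0. All 40 ribosomal proteins were within 1.5-fold, with log2 ratios from -0.14 to 0.13 and a summed level of 41797 CPM in mitotic-high cells against 41972 CPM in mitotic-low cells. Of 24 ribosome biogenesis, 30 oxidative phosphorylation, 16 glycolysis, 25 proteasome, 24 splicing and 14 heat shock genes, 0 were 1.5-fold higher or lower. Their medians were 0.06, 0.02, -0.06, -0.03, -0.16 and -0.14 in that order. A ratio below 0 was seen for 21 of the 24 splicing and 12 of the 14 heat shock genes, and a ratio above 0 for 19 of the 24 ribosome biogenesis genes. Just under the 1.5-fold line were Polr1b, a subunit of RNA polymerase I, and Wdr43, a ribosome assembly factor, both at 0.57. Myc, a transcription factor of growth, was at 830 CPM in mitotic-high cells against 580 CPM in mitotic-low cells. Npm1, a nucleolar protein, was at 3061 against 3279 CPM. Of 8 measured G1 regulators 1 was higher, Cdkn2d, an inhibitor of Cdk4 and Cdk6, at 14.2 against 6.22 CPM. Of 6 measured p53 targets 1 was lower, Phlda3, at 5.64 against 20.8 CPM, and of 3 measured immediate early genes 0 were higher or lower. These counts stand beside 7.89% higher and 6.85% lower over all measured genes.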

How the data were processed

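Single cells were profiled by Smart-seq2, and the authors deposited 1 table of whole-number read counts per gene and well. Reads were aligned with STAR 2.4 to GRCm38 and counted with featureCounts, per the submitters' processing notes; the sources used here give no featureCounts version, annotation, strand setting or treatment of shared reads. The header line holds an empty cell more than the data lines, so names were taken in column order. The table held 49466 identifiers, 20754 with a read, 0 rows that name no gene, 0 columns without a sample and 0 pairs of identical columns. Of the identifiers, 99.7% are in GENCODE M21, the source of coordinates (1-based). Where identifiers shared a symbol (76 symbols), that with the highest count was taken.

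Cells were kept with 50000 or more reads, 7000 or more genes and under 100 CPM of Cd34, which left 1022381 to 3785903 reads per cell. Doublets were not called: the labels give 1 cell per well, but 3 kept wells held both Y-linked and Xist transcripts. Counts were summed per side, and counts of 0 were set to a floor of 3 per side. Since the sides were chosen from these cells and no animal is named, no test was made. Members, gene lists and motifs were chosen with earlier results of these data known. Genes named by rule were measured, at 50 CPM or more in the higher side detected in 50% or more of its cells, under 25% of its reads in 1 cell, 1 direction in 4 gates and both sets of plate rows, and 2-fold in sums and in means of per-cell CPM; predicted genes and pseudogenes were left out. Of those, the 15 highest and 12 lowest are named, with up to 4 members of each list by level. Other genes were picked with their values known. A few genes of the lists are not reported here. Alternatives used edgeR 4.0.16 (TMM) and DESeq2 1.42.0 (size factors) in R 4.3.3. Other steps ran in Python 3.11.15 with scipy 1.17.1, matplotlib 3.10.9, pandas 2.3.3 and numpy 2.4.6. Simulated counts with known ratios were used to test the script for ratios.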

Additional observations from a re-analysis of the deposited data

Results flagged for a closer look

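A high-side cell of the BFUE gate stood apart from the other 4 of its group in S phase transcripts. Well F3 had a mean S phase level of 7.60, while the others lay between 6.89 and 7.08 (mean log2(CPM + 10)). It was also the mitotic-high cell of its gate closest to the border, with a score of 7.93.

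The high-side cell of well B4 in the lower intermediate gate stood apart in the same way. Its mean S phase level was 7.91, while the other 6 lay between 7.05 and 7.38, and its score of 7.39 was the lowest of its side.

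The low-side CFUE cell of well D11 stood apart in depth, with 2060115 reads in genes, while the others held 1481028 to 1709606. These 3 came from 40 groups of cells examined for a cell far from the rest, and chance alone gives about 1 in 20.

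Gene lists of maturation had medians of opposite direction in CFUE and in the lower intermediate gate. The red cell membrane list had a median log2 ratio of 0.68 in CFUE and -0.41 in the lower intermediate gate. The late erythroblast markers had 0.62 and -1.22, and the heme, globin and membrane genes together 0.64 and -0.39, in the same order. These differences between gates were not tested, and the 3 lists share members.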

How the results depend on the processing

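No paired analysis was possible because the ratios come from no test and well numbers only name cells. Of 27 named genes, 17 stayed past 2-fold in all of 25 alternatives chosen with earlier results known and 1 added later. That all 27 kept their direction is in large part fixed by the naming rule, which used gates, plate rows and means over cells. The alternative added after seeing the data left out the 2 mitotic-low wells with both Y-linked and Xist transcripts, and gave 190 and 169 genes 2-fold higher and lower and medians of 0.42 for mitosis, -0.42 for S phase and 0.23 for heme, globin and membrane genes. The median log2 ratio of the mitosis genes kept its direction, and that of S phase genes moved only with 1 in 2 cells of each gate per side in place of 1 in 3 (-0.29). The heme, globin and membrane median turned to -0.061 as a mean over gates, to -0.18 without CFUE and to -0.13 in plate rows A to D. It moved to 0.38 with 1 in 4 cells per side, 0.48 with cells ranked over all gates, 0.45 in rows E to H and 0.34 without Cenpf in the score. Counts of 2-fold genes, higher and lower, moved to 304 and 297 as a mean over gates, 40 and 17 at 50 CPM, 1346 and 1529 with no CPM minimum, 105 and 92 with 1 in 2 cells per side, 316 and 279 without the upper intermediate gate, 438 and 380 in rows A to D and 387 and 401 in rows E to H. The lower count alone moved to 429 with the Cd34-high cells kept, 293 with 1 in 4 cells per side and 249 without CFUE. The cause was not tested. Of 3536 values of single genes that are reported, 1789 moved outside the counting interval of their main ratio. A value could count as turned only where the main ratio was at least 1.5-fold, and 11 did. Itga2b was at -0.80 as a mean over gates and -1.46 without BFUE, and Gp9 at -0.11 with Cd34-high cells kept. Hba-a1 was at -0.51 as a mean over gates, -0.29 without CFUE and -0.17 in rows A to D. Gata2 was at -0.68 as a mean over gates, -0.13 with 1 in 2 and -1.10 with 1 in 4 cells per side, -0.34 in rows A to D and -0.87 without Ube2c in the score. With the TMM and DESeq2 factors the median of all genes was 0.02 and 0.01. Genes near 10 CPM have wide spreads over cells, which the counting intervals do not cover.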

Other observations

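Transcripts of the sex chromosomes split the kept cells. At 10 CPM, 31 of 82 cells had transcripts of Y-linked genes without Xist, 46 had Xist without Y-linked genes, 3 had both and 2 neither. Of the 3 with both, 2 were mitotic-low cells and 1 was a middle cell, among them the mitotic-low well B8 of the upper intermediate gate with 23.7 CPM of Y-linked genes and 221 CPM of Xist. Whether these wells held 1 cell each was not tested. Among mitotic-high cells 13 had Y-linked transcripts alone and 14 Xist alone, and among mitotic-low cells 7 and 17. Uty, a Y-linked demethylase gene, was at 21.1 CPM in mitotic-high cells against 4.47 CPM in mitotic-low cells, and Kdm5d at 12.9 against 3.57 CPM. Both are among the genes at least 2-fold higher, and the part of this uneven split in the other ratios was not tested.

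The 8 BFUE cells left out for Cd34 had mitotic scores from 3.49 to 9.06 with a median of 5.44, so their scores spanned more than the whole range of the 82 kept cells, which was 5.08 to 8.94.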
